A study of Rattus norvegicus with 13 samples.

Results

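Chemokines are small secreted proteins that guide leukocytes by binding G protein-coupled receptors on their surface. In the heart they are made by endothelial cells, fibroblasts, resident macrophages and lymphocytes, and are known for drawing monocytes and T cells into the muscle after injury. Ackr4 (also called Ccrl1) is an atypical receptor: it binds and internalises the chemokines Ccl19, Ccl21 and Ccl25 without G protein signalling and so removes them from the tissue. The genes described here are 9 chemokine genes, Ccl2, Ccl3, Ccl4, Ccl5, Ccl7, Ccl11, Cxcl12, Cx3cl1 and Cxcl10, together with Ackr4. They were taken by gene name, 10 of the 26115 names on the array, with 11 probes in all, and they were picked with the group differences of these hearts in view. Their differences are therefore given as a description, without a test.

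Left ventricles of male rats, all 45 weeks old, were the tissue. The labels name rats overexpressing ADBR3, the β3-adrenergic receptor (5 rats on 7 arrays), and wild-type (WT) rats (4 rats on 6 arrays). The means of overexpression, the promoter and the introduced sequence are not stated in the labels. Arrays used the Cy3 dye alone. Hearts 1 and 2 of each group are repeat labelings of 1 rat and were averaged, and overexpressing heart 4 and WT heart 5 are repeat hybridizations whose partner is not named by heart number and were kept out of the means. Rats are named by heart number: 1, 3, 5, 6 and 7 among overexpressing rats and 1, 3, 4 and 6 among WT rats.

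A level is the log2 signal of a probe minus the 75th percentile of its array, so a level of 0 lies at that percentile, and levels of different probes are not comparable. The 75th percentile signal ran between 760.4 and 908.7 over the 13 arrays, which sat on 5 slides, and between 55.2% and 67.8% of the spots exceeded background by the software's test, with the lowest share on WT heart 2. No spot was saturated (0 on every array). The array's probe for Adrb3 itself was well above background on 1 of 7 overexpressing arrays and 0 of 6 WT arrays, with levels of -5.96 ± 1.22 and -6.44 ± 0.45, so this probe gives no check of the labels. Markers of ventricular cardiomyocytes were all measured (8 of 8), with Myh6 at 9.17 in overexpressing rats and 9.18 in WT rats. Over the 15367 genes tested with limma, Ak1, which encodes a cytosolic adenylate kinase, alone passed an adjusted p of 0.05, which is 0.00651% of genes. It was named after its value was seen. At an unadjusted p under 0.05 there were 1451 genes, or 9.44% of those tested: 6.29% were lower in overexpressing rats and 3.15% higher.

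The 60-base probes of Ccl4, Ccl5 and Ackr4 are shown in whole or in part. Among the chemokine genes described here and Ackr4, these had the clearest separation between groups. The coordinates are those of the whole probe on rat build rn4, as the array files give them, and no annotation of that build was used here. The Ackr4 probe holds a run of 20 bases of whole AC dinucleotides, set in capitals. The probes of Cx3cr1, the receptor of Cx3cl1, and of Extl3, a glycosyltransferase of heparan sulfate synthesis, hold the same kind of run, of 22 and 24 bases of whole CA dinucleotides, and are shown because the Ackr4 result is set beside them below. No such run stands in the Ccl4 or Ccl5 stretches, which are in lower case throughout.
Ccl4, chr10:71760265-71760324, plus strand, whole probe: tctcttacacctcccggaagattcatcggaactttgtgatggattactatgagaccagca
Ccl5, chr10:71605854-71605913, minus strand, last 30 bases: tctcctatggcctgggaggtgtgctcttca
Ackr4, chr8:109160685-109160744, minus strand, 30 bases around the run: tttttgcttACACACACACACACACACACa
Cx3cr1, chr8:125033728-125033787, minus strand, 30 bases around the run: aacagattCACACACACACACACACACACA
Extl3, chr15:44400159-44400218, minus strand, 30 bases around the run: tgcacgCACACACACACACACACACACACA

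Of the 10 genes, 9 were well above background on all 13 arrays, and Ccl11 was not. Among those 9, 8 had a lower mean in overexpressing rats and 1, Cxcl12, a higher one. For 3 genes, Ccl4, Ccl5 and Ackr4, every overexpressing rat lay below every WT rat. Ccl5 overlapped under median scaling and Ccl4 in the authors' deposited values, while Ackr4 was apart in both. Over all genes tested, 53.3% had a lower mean in overexpressing rats and 3.52% had groups that did not overlap, 2.3% with the overexpressing rats lower. Since the genes were picked from this contrast, nothing is read from these shares. The median difference was -0.26 over the 9 genes and -0.01 over all genes. In bulk tissue, fewer cells of a type and less RNA per cell cannot be told apart, and this holds for every value below.

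**Figure D1:**
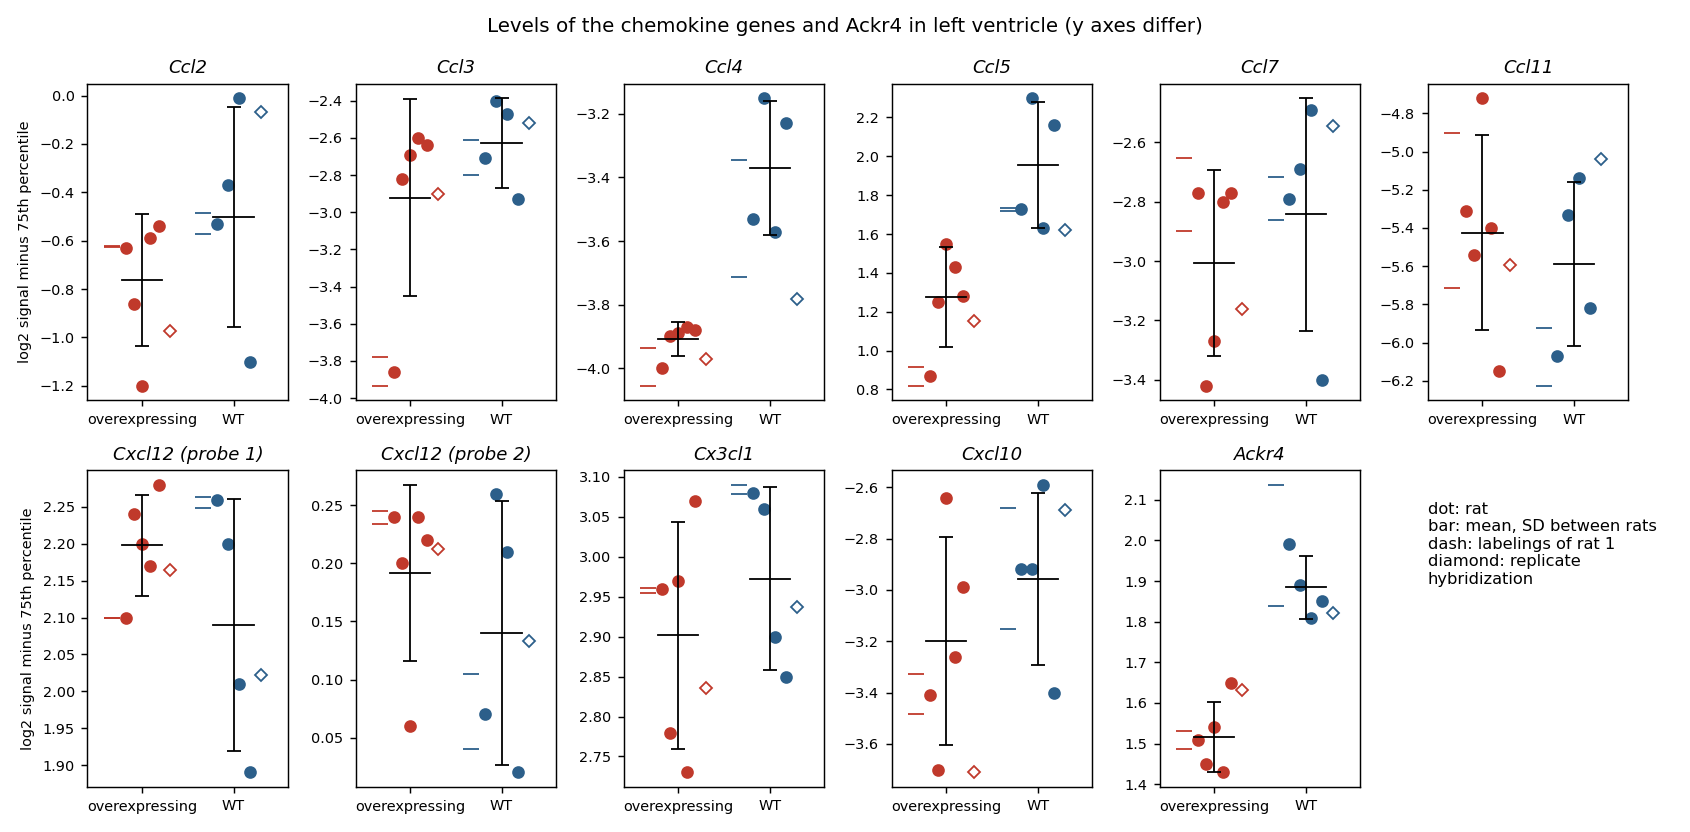
Level of each probe (log2 signal relative to the 75th percentile of its array, y axes differ) in overexpressing rats (red, left) and WT rats (blue, right); dots are rats, bars the mean and SD between rats, dashes the repeat labelings of rat 1 and open diamonds the repeat hybridizations. The red and blue dots separate for Ccl4, Ccl5 and Ackr4 and overlap for the other probes.

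Ccl3, Ccl4 and Ccl5 encode inflammatory CC chemokines, which attract T cells, NK cells and monocytes, and their genes lie close together on chromosome 10. Ccl5 (RANTES), a product of T cells, NK cells and platelets among others, had levels of 0.87, 1.25, 1.55, 1.43 and 1.28 in overexpressing rats 1, 3, 5, 6 and 7, against 1.73, 2.30, 1.63 and 2.16 in WT rats 1, 3, 4 and 6. The highest overexpressing rat, number 5, stayed just under the lowest WT rat, number 4. Its mean was 1.27 ± 0.26 in overexpressing rats and 1.95 ± 0.33 in WT rats (SD, n = 5 and 4), a difference of -0.68 ± 0.17 (SE), or 0.625-fold. Under median scaling the difference was -0.64 and the groups overlapped. Repeat labelings of rat 1 differed by 0.10 in the overexpressing group and 0.02 in WT. The repeat hybridizations gave 1.15 in the overexpressing group and 1.62 in WT, on the same sides as the rats.

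Ccl4 (MIP-1β), made by activated macrophages, T cells and NK cells, had levels of -4.00, -3.90, -3.89, -3.87 and -3.88 in overexpressing rats 1, 3, 5, 6 and 7, against -3.53, -3.15, -3.57 and -3.23 in WT rats 1, 3, 4 and 6. The overexpressing rats sat close together, with an SD of 0.05 around -3.91, while WT rats spread with an SD of 0.21 around -3.37. The difference was -0.54 ± 0.09 (SE), or 0.689-fold. These are dim signals, and the size of the difference changed with the processing. It was -0.22 with normexp correction, run with an offset of 50, and quantile scaling. It was -0.30 with the same correction and the 75th percentile, and -0.27 from the authors' deposited values, where the groups overlapped. The repeat arrays show how wide the error at this level is. The 2 WT labelings of rat 1 differed by 0.37, the 2 overexpressing ones by 0.12, and the 2 spots of an array by a median SD of 0.14. The overexpressing repeat hybridization read -3.97 and the WT one -3.78, below all 4 WT rats.

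Ccl3 (MIP-1α), the close relative of Ccl4, had levels of -3.86, -2.82, -2.69, -2.60 and -2.64 in overexpressing rats 1, 3, 5, 6 and 7, against -2.71, -2.40, -2.47 and -2.93 in WT rats 1, 3, 4 and 6. Overexpressing rat 1 stood far below the others, and the remaining rats of both groups overlapped. The mean was -2.92 ± 0.53 in overexpressing rats and -2.63 ± 0.24 in WT rats, a difference of -0.30 ± 0.26 (SE). Without overexpressing rat 1 the difference was -0.06. The low value came from both labelings of that rat, at -3.93 and -3.78, each an average over 10 spots.

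For Ccl4, Ccl5 and Ackr4 every overexpressing array lay below every WT array. A negative difference on any slide or scan day was therefore fixed in advance, and the sizes are given as a description. Slides 1, 3 and 4 held both groups, with 1 to 3 rats or repeat hybridizations of each, and WT on slide 4 was the repeat hybridization. The difference of Ccl5 there was -0.35, -1.12 and -0.24, and that of Ccl4 was -0.31, -0.68 and -0.13. For Ackr4 it was -0.16, -0.39 and -0.29. On scan days 1 and 2 the differences were -0.48 and -0.80 for Ccl5, -0.34 and -0.63 for Ccl4, and -0.28 and -0.41 for Ackr4. Ccl3 was also lower in overexpressing rats on every slide and day with both groups, by amounts from -1.12 to -0.17.

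Ccl2 (MCP-1) and Ccl7 (MCP-3) attract monocytes through the receptor Ccr2 and are encoded side by side on chromosome 10. Ccl2 levels were -0.63, -0.86, -1.20, -0.59 and -0.54 in overexpressing rats 1, 3, 5, 6 and 7, against -0.53, -0.37, -0.01 and -1.1 in WT rats 1, 3, 4 and 6. The groups overlapped because WT rat 6 was low. The difference was -0.26 ± 0.22 (SE), with means of -0.76 ± 0.27 in overexpressing rats and -0.50 ± 0.46 in WT rats. It was -0.46 without WT rat 6, -0.15 without overexpressing rat 5 and -0.10 without WT rat 4. Ccl7 levels were -2.77, -3.42, -3.27, -2.80 and -2.77 in overexpressing rats, against -2.79, -2.69, -2.49 and -3.40 in WT rats, in the same order of rats. WT rat 6 was again the lowest of its group, and the difference was -0.17 ± 0.21 (SE). It was -0.35 without WT rat 6, -0.05 without WT rat 4, -0.06 without overexpressing rat 3 and -0.10 without overexpressing rat 5. On slide 3, which held WT rats 1 and 6, both genes were higher in the overexpressing rat, by 0.19 for Ccl2 and 0.20 for Ccl7, while on slides 1 and 4 both were lower.

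Ccl11 (eotaxin), which attracts eosinophils, lies in the same cluster. It was well above background on 3 of 7 overexpressing arrays and 1 of 6 WT arrays, so it was not tested and no fold is given. Its measured levels were -5.43 ± 0.52 in overexpressing rats and -5.59 ± 0.43 in WT rats.

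Cxcl10 (IP-10) is induced by interferons and attracts T and NK cells through Cxcr3. Its levels were -3.41, -3.70, -2.64, -3.26 and -2.99 in overexpressing rats 1, 3, 5, 6 and 7. In WT rats they ran from -3.40 to -2.59 with a median of -2.92. The groups overlapped, and the difference was -0.24 ± 0.22 (SE). It was -0.12 without overexpressing rat 3 and also without WT rat 4, -0.38 without overexpressing rat 5 and -0.39 without WT rat 6. The repeat labelings of WT rat 1 alone differed by 0.47, which is more than the difference between groups. On slides 1, 3 and 4 the difference was -0.40, -0.33 and -0.52, and on scan days 1 and 2 it was -0.75 and -0.05.

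Cxcl12 (SDF-1) and Cx3cl1 (fractalkine) are made constitutively in the heart and retain or tether cells bearing Cxcr4 and Cx3cr1. The brighter Cxcl12 probe had levels of 2.10, 2.24, 2.20, 2.17 and 2.28 in overexpressing rats 1, 3, 5, 6 and 7, against 2.26, 2.20, 2.01 and 1.89 in WT rats 1, 3, 4 and 6. The groups overlapped, and the difference was 0.11 ± 0.08 (SE). It was 0.04 without WT rat 6 and 0.16 without WT rat 1. The other Cxcl12 probe, several kilobases upstream on chromosome 4, averaged 0.19 ± 0.07 in overexpressing rats and 0.14 ± 0.11 in WT rats, a difference of 0.05 in the same direction. Cx3cl1 averaged 2.90 ± 0.14 in overexpressing rats and 2.97 ± 0.12 in WT rats, with ranges of 2.73 to 3.07 and 2.85 to 3.08. Its difference of -0.07 ± 0.09 (SE) was 0.02 with the slide as a block, and on slide 1 alone it was 0.17. Leaving out a rat moved it between -0.11 without overexpressing rat 7 or WT rat 6 and -0.03 without overexpressing rat 6, with -0.04 without overexpressing rat 3 or WT rats 1 or 3.

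Ackr4 is measured by 1 probe with 1 spot per array. Its levels were 1.51, 1.45, 1.54, 1.43 and 1.65 in overexpressing rats 1, 3, 5, 6 and 7, against 1.99, 1.89, 1.81 and 1.85 in WT rats 1, 3, 4 and 6. Every overexpressing rat lay below every WT rat, and so did all 7 overexpressing arrays below all 6 WT arrays. The means were 1.52 ± 0.09 in overexpressing rats and 1.88 ± 0.08 in WT rats, a difference of -0.37 ± 0.06 (SE), or 0.774-fold. The repeat labelings differed by 0.05 in the overexpressing group and 0.30 in WT, where heart 2 read 2.14 and heart 1 read 1.84. Without the array of WT heart 2 the difference was -0.33.

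The dinucleotide run in the Ackr4 probe is shared with other probes, whose values are set beside it here. The run was noticed after the values were seen and is given without a test. Leaving Ackr4 out, 13 tested genes had a probe with a CA run of 20 bases or more, and 13 of the 13 were lower in overexpressing rats, with a median difference of -0.21 and a range from -0.46 to -0.02. The groups did not overlap for 7 of the 13. With 10 bases or more, 18 of 19 were lower and 9 did not overlap. Over all genes tested, 53.3% were lower and 3.52% did not overlap, 2.3% with the overexpressing rats lower. Of the 5 probes with a run of TG, the complement, of 20 bases or more, 5 were lower with a median of -0.14, and the groups overlapped in all of these 5 (0 without overlap). Under median scaling, which moved the median of all genes to 0.03, 12 of the 13 CA probes were lower, and under quantile scaling all 13.

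The mean level of the 13 other CA probes was 4.56, 4.59, 4.71, 4.55 and 4.67 in overexpressing rats 1, 3, 5, 6 and 7, against 4.85, 4.87, 4.82 and 4.79 in WT rats 1, 3, 4 and 6. WT heart 2 was the highest array on this mean (4.95) and on Ackr4 (2.14). Over the 9 rats, with each group's mean removed, the Pearson r of a CA probe with Ackr4 had a median of 0.64 and a range from -0.51 to 0.88 over the 13 probes, beside a median of 0.03 over all genes. All of these values come from the same arrays. The mean of the 13 was lower in overexpressing rats on slides 1, 3 and 4, by -0.14, -0.28 and -0.19, and on scan days 1 and 2, by -0.20 and -0.24. The Ackr4 difference was larger than that of their mean by -0.15, and after subtracting that mean in each rat the groups still did not overlap, though the nearest values were -3.02 in an overexpressing rat and -3.01 in a WT rat. The part of the run in the Ackr4 result was not tested.

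**Figure D2:**
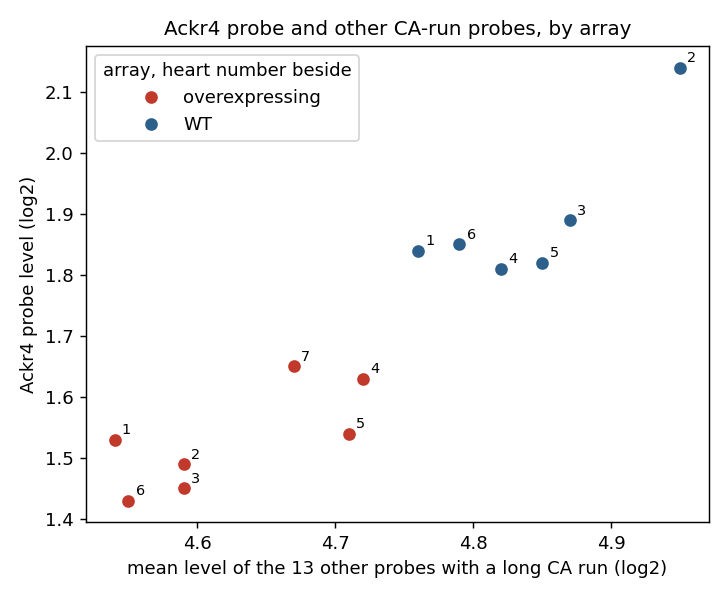
Level of the Ackr4 probe (y axis, log2) against the mean level of the 13 other probes with a CA run of 20 bases or more (x axis, log2) on each array, with heart numbers; overexpressing arrays are red and WT arrays blue. The 7 overexpressing arrays lie low on both axes and the 6 WT arrays high, with WT heart 2 at the top of both.

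The receptors of these chemokines were 10 listed genes, of which 6 could be tested and 0 passed in limma at an adjusted p of 0.05. At an unadjusted p under 0.05 there was 1, Cx3cr1, in a fit where 6.29% of all genes were lower at that level. Cx3cr1, the fractalkine receptor of monocytes, macrophages and NK cells, averaged 2.00 ± 0.15 in overexpressing rats and 2.31 ± 0.09 in WT rats, a difference of -0.32 ± 0.08 (adjusted p = 0.313). Its probe is the only one for the gene on the array and carries the CA run shown above. Its r with Ackr4 over the 9 rats, group means removed, was 0.83. The part of the run was not tested here either.

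Cxcr4, the receptor of Cxcl12, differed by -0.28 (adjusted p = 0.594) and Cxcr3, the receptor of Cxcl10, by -0.26 (adjusted p = 0.786). Cxcr3 was well above background on 5 of 7 overexpressing and 3 of 6 WT arrays and Ackr2 on 6 of 7 and 3 of 6, so their differences rest partly on signals at background. The scavenging receptors Ackr2, which takes up inflammatory CC chemokines, and Ackr3 (Cxcr7 on the array), which takes up Cxcl12, differed by -0.02 and 0.10 (adjusted p = 0.985 and 0.794). Ccr2, the receptor of Ccl2 and Ccl7, was well above background on 0 arrays, and Ccr1 and Ccr3 on at most 1 array each. Ackr1 is not on the array by that name.

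The ligands and sister receptors of Ackr4 were 6 listed genes, of which 4 were tested, 0 passed and 2 were lower at an unadjusted p under 0.05, as 6.29% of all genes were. The ligands Ccl19 and Ccl21, which guide dendritic cells and T cells to lymphatics, differed by 0.11 (adjusted p = 0.788) and -0.01 (adjusted p = 0.991). Ccl25, the third ligand, and Ccr7, the signalling receptor of Ccl19 and Ccl21, were above background on 0 arrays. Ccr9, the signalling receptor of Ccl25, averaged -0.25 ± 0.14 in overexpressing rats and 0.01 ± 0.14 in WT rats, a difference of -0.26 (adjusted p = 0.442). Ccrl2, an atypical receptor that presents chemerin, differed by -0.26 (adjusted p = 0.457). The probe of Ccr9 has a CA run of 6 bases and that of Ccrl2 has none.

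**Figure D3:**
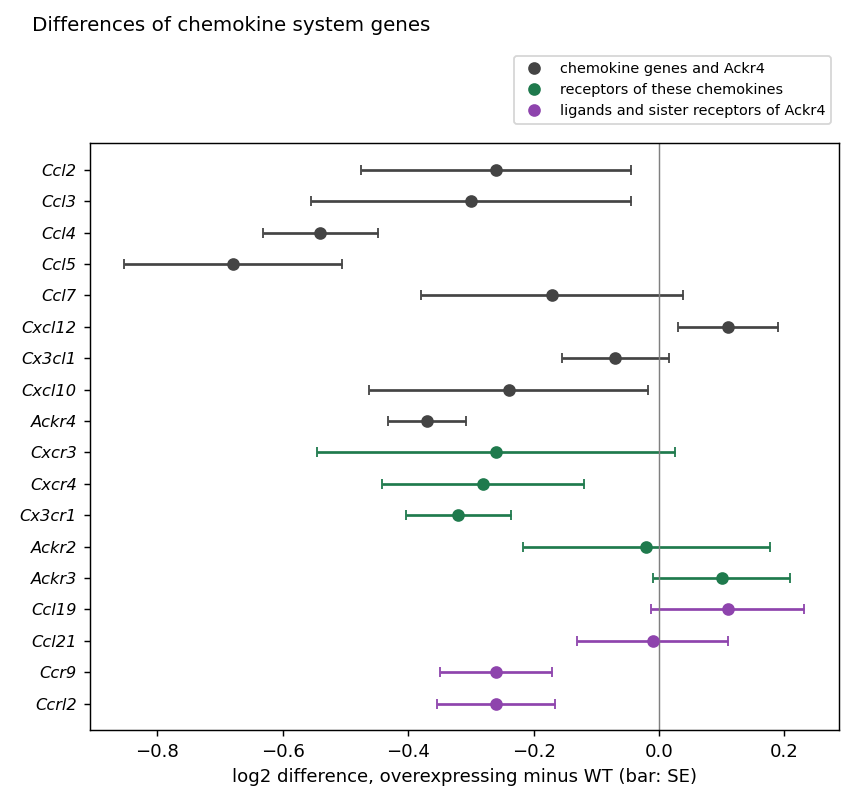
Difference in level (log2, overexpressing minus WT, x axis) with its SE for the tested chemokine genes and Ackr4 (grey), receptors of these chemokines (green) and the ligands and sister receptors of Ackr4 (purple). Ccl5, Ccl4 and Ackr4 lie furthest below 0, and the SE of the receptors Cxcr3, Ackr2 and Ackr3 crosses 0.

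Among other chemokine ligands, 16 of 23 were tested, 13 with a lower mean in overexpressing rats and 3 with a higher one, with a median of -0.26. None passed (0), and 2 of the 16 were lower at an unadjusted p under 0.05. Over all genes 53.3% had a lower mean and 6.29% were lower at that p. The groups did not overlap for 1 of the 16, with overexpressing rats lower, beside 2.3% of all genes. Among the listed genes named below, they also did not overlap for Nfkbia and Mmp2, higher in overexpressing rats, and Itga4 and Mcpt10, lower. Ccl6, a macrophage chemokine of rodents, averaged 0.23 ± 0.05 in overexpressing rats and 0.54 ± 0.26 in WT rats (difference -0.31, adjusted p = 0.452). Cxcl1, which attracts neutrophils, averaged -4.04 ± 0.47 and -3.52 ± 0.11 in the same order (difference -0.52, adjusted p = 0.51). Of the 9 other chemokine receptors, Ccr10, found on skin-homing T cells, was the only one tested, with a difference of -0.21 (adjusted p = 0.856).

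The cytokines and transcription factors that induce chemokines showed no common direction. Of 24 listed, 18 were tested, 11 with a lower and 7 with a higher mean. Again 0 passed, with 2 lower and 1 higher at an unadjusted p under 0.05, against 6.29% lower and 3.15% higher over all genes. Nfkbia, which encodes the inhibitor of NF-κB and is itself an NF-κB target, averaged 1.69 ± 0.24 in overexpressing rats and 1.17 ± 0.29 in WT rats (difference 0.52, adjusted p = 0.393). Irf7, a transcription factor of the interferon response, averaged 1.04 ± 0.35 in overexpressing rats and 1.56 ± 0.14 in WT rats (difference -0.52, adjusted p = 0.422).

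For genes that process or retain chemokines, 11 of 13 were tested, 4 with a lower and 7 with a higher mean, and 0 passed, with 2 higher at an unadjusted p under 0.05 (3.15% of all genes). Mmp2, a gelatinase that cleaves Ccl7 and Cxcl12, averaged 2.79 ± 0.10 in overexpressing rats and 2.52 ± 0.14 in WT rats (difference 0.27, adjusted p = 0.373). Sdc2, a heparan sulfate proteoglycan of the cell surface, differed by 0.13 (adjusted p = 0.526). For adhesion of leukocytes to endothelium, 10 of 12 were tested, 7 with a lower mean, and 0 passed, with 2 lower at an unadjusted p under 0.05 (6.29% of all genes). Both are leukocyte integrins: Itga4, well above background on 4 of 6 WT arrays, differed by -0.50 (adjusted p = 0.382) and Itgb2 by -0.32 (adjusted p = 0.506).

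Markers of T and NK cells, which make Ccl4 and Ccl5, were lower in mean in overexpressing rats for 11 of the 12 tested genes of 16 listed, with a median difference of -0.27. None passed (0), and 5 were lower at an unadjusted p under 0.05. Over all genes 53.3% had a lower mean, 6.29% were lower at that p, and the median difference was -0.01. This list, like the other lists here, was chosen with earlier results of these data known, so nothing is read from these shares. Cd6, a T cell surface receptor, had the smallest p, with a difference of -0.54 (adjusted p = 0.311), but another of its probes well above background in all 9 rats differed by -0.10. The mean level of the 12 markers was -3.50, -3.38, -3.18, -3.16 and -3.08 in overexpressing rats 1, 3, 5, 6 and 7, against -3.08, -2.68, -2.93 and -3.16 in WT rats 1, 3, 4 and 6. The log2 of their summed signal ran from 0.73 to 1.15 in overexpressing rats and from 1.13 to 1.55 in WT rats. Overexpressing rat 1 was lowest and WT rat 3 highest on this mean, on Ccl5 and on Ccl4. Cd3e, Cd2, Cd5 and Lck were too dim to test. Cd8a, among the 5 lower genes, was well above background on 3 of 7 overexpressing and 4 of 6 WT arrays. Gzma, also among them, was so on 7 and 5 arrays. Cd8b, Gzmb, Cd4 and Klrd1 also fell short on some arrays of each group. The mean of the 12 markers therefore rests partly on signals at background. The part of these cells in the Ccl4 and Ccl5 values was not tested.

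**Figure D4:**
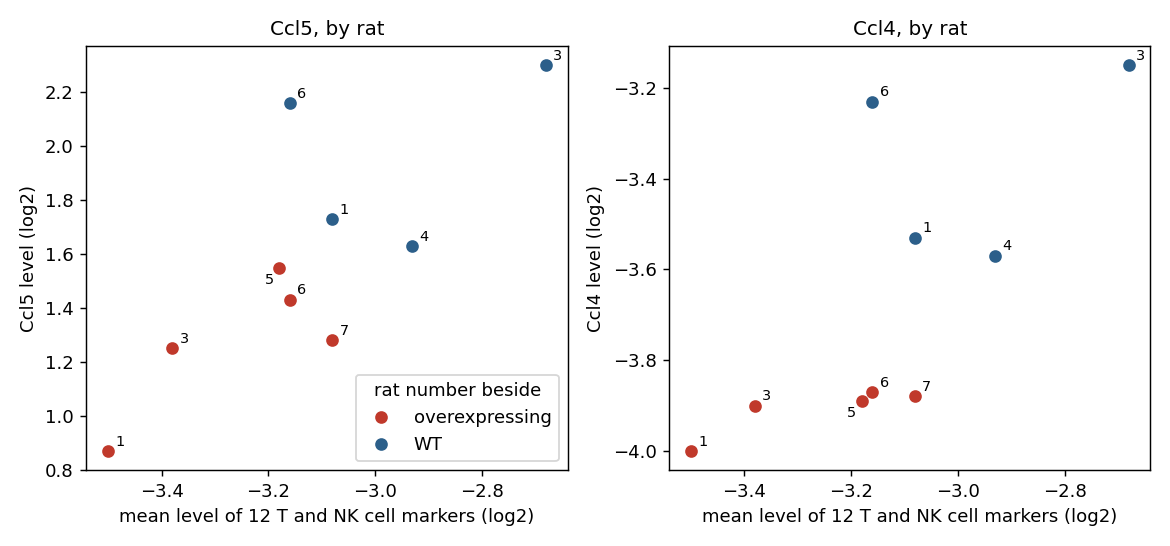
Level of Ccl5 (left panel) and Ccl4 (right panel) on the y axis against the mean level of 12 T and NK cell markers on the x axis (all log2), for overexpressing rats (red) and WT rats (blue), with rat numbers. Overexpressing rat 1 is lowest and WT rat 3 highest on each axis. The groups overlap on the x axis only between -3.16, the lowest WT rat, and -3.08, the highest overexpressing rat. On both y axes they do not overlap, which was already known for these genes. Few rats share a marker level, so the plot cannot show whether the separation holds at equal marker levels.

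Markers of macrophages and myeloid cells were all tested (16 of 16), 13 with a lower and 3 with a higher mean. Differences ran from -0.39 to 0.32 with a median of -0.12. None passed the threshold (0), and 2 were lower at an unadjusted p under 0.05. The smallest p was that of Ptprc, the pan-leukocyte gene CD45, with a difference of -0.39 (adjusted p = 0.461). For mast cells and granulocytes, 10 of 16 were tested, 7 with a lower and 3 with a higher mean and a median of -0.28. Again 0 passed the threshold and 2 were lower at an unadjusted p under 0.05. Of all genes tested, 53.3% had a lower mean and 6.29% were lower at that p. The smallest p of the mast cell and granulocyte list belonged to the mast cell protease gene Mcpt10, with a difference of -0.85 (adjusted p = 0.299). The log2 summed signal of the myeloid list ran from 5.53 to 5.84 in overexpressing rats and from 5.68 to 5.90 in WT rats, and that of the mast cell and granulocyte list from 0.96 to 1.41 in overexpressing rats and from 1.1 to 1.64 in WT rats.

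Endothelial cells and fibroblasts are sources of Cxcl12 and Cx3cl1. Of the endothelial markers, 11 of 12 were tested, 7 with a lower and 4 with a higher mean and a median of -0.02. Egfl7, a secreted endothelial factor, differed by -0.18 (adjusted p = 0.526). Fibroblast markers had a higher mean in overexpressing rats for 10 of 10 genes, with a median of 0.14 and Mfap4, a microfibril protein, at 0.18 (adjusted p = 0.521). Smooth muscle and pericyte markers were higher in mean for 7 of 7, with Kcnj8, a potassium channel subunit, at 0.16 (adjusted p = 0.641). Ventricular cardiomyocyte markers had a lower mean for 7 of 8, atrial markers for 1 of 4 and blood cell markers for 2 of 6. Over all genes 53.3% had a lower mean. Ryr2, the calcium release channel of cardiomyocytes, differed by -0.07 (adjusted p = 0.665), Nppa, an atrial peptide gene, by 0.74 (adjusted p = 0.667), Itga2b of platelets by 0.16 (adjusted p = 0.66), and Pax5, a B cell factor, by 0.00 (adjusted p = 1). None of these 7 marker lists of resident, atrial, blood and B cells had a gene past the threshold (0). At an unadjusted p under 0.05 there was 1 gene in them, Mfap4, which was higher, as 3.15% of all genes were.

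The spread among rats was not the same for all genes. Over the 9 tested genes, an overexpressing rat held the lowest level for 8 and a WT rat the highest for 8. For Ccl4, Ccl5 and Ackr4 this follows from the separation of the groups. The genes were picked from this contrast, so nothing is read from these counts. Overexpressing rat 1 was lowest for 3 genes, and WT rats 3 and 4 were highest for 3 each. By the likeness of their levels over the 9 rats with group means removed, the genes closest to Ccl4 were Ogfr (r 0.96), Rps24 (0.94) and Aox3 (0.92), and those closest to Ackr4 were Zfand5 (0.97), Abca8 (0.97) and Dram2 (0.96). None of these 6 probes has a CA run over 4 bases. These are the highest of 15367 correlations over 9 rats and are given as a description.

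**Figure D5:**
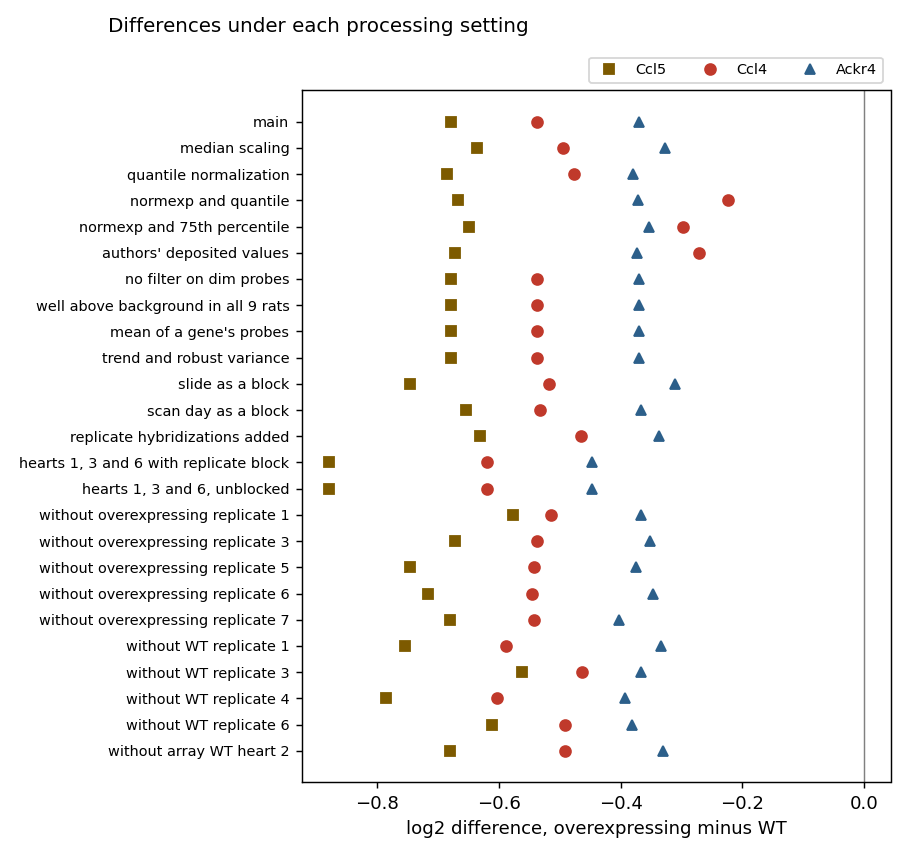
Difference in level (log2, overexpressing minus WT, x axis) of Ccl5 (squares), Ccl4 (circles) and Ackr4 (triangles) under each processing setting (rows, named at the left). All points lie below 0; Ccl4 moves to between -0.30 and -0.22 under the normexp settings and in the authors' deposited values, while Ackr4 stays between -0.45 and -0.31.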

How the data were processed

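The authors deposited scanner files with the intensity of each spot. Per the file headers, the software was Feature Extraction 10.7.1.1, the array design 028279 and the build rn4. The processed signal is background-subtracted and detrended, with no scaling between arrays recorded there. Natural log values deposited by the authors cover 20000 of 30367 probes. These values matched the natural log of the scanner's median spot signal, which is not background-subtracted. Correlations were 0.9988 to 0.9999, slopes were near 1 (0.986 to 1.064), and column medians ran from 5.695 to 5.73. The direction of the authors' values is therefore known, no source used here states how they were scaled, and they served as an alternative.

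From 58717 non-control spots, log2 of the processed signal minus the array's 75th percentile was averaged per probe without outlier spots. Repeat labelings were averaged to 1 rat. Probes well above background in at least 4 of 9 rats were kept, and the brightest probe stood for a gene. The fit used lmFit and eBayes of limma 3.58.1 (R 4.3.3, with the data.table package, version 1.17.8) on group alone, with Benjamini-Hochberg adjustment at 0.05 over 15367 genes. On simulated data of this size it recovered 45% of log2 changes of 0.5 and 89.5% of changes of 1. The number of rats limits the precision. Plots used Python 3.11.15 and matplotlib 3.10.9.

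Genes named are the members, their receptors (1 tested receptor is not reported here), the ligands and sister receptors of Ackr4, from each other pathway list those past the threshold or the 2 with the smallest p, from each marker list the 1 with the smallest p, and for Ccl4 and Ackr4 the 3 symbols most alike. Extl3, Ak1 and the CA-run probes were added after the values were seen. The members and lists were chosen with earlier results of these data known. Alternatives changed scaling, background correction, filter, probe choice, variance model, slide or scan day block, and the rats used.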

Additional observations from a re-analysis of the deposited data

Results flagged for a closer look

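In 18 sets of rats tested for a sample far from the others (9 genes in each group), 2 stood out, and chance alone marks about 1 in 20. In both cases the rat was overexpressing rat 1. For Ccl3 its level was -3.86, with the nearest overexpressing rat at -2.82, a gap of 0.826 of the group's range. For Ccl4 its level was -4.00, with the nearest overexpressing rat at -3.90, a gap of 0.717 of a narrow range. Without this rat the difference between groups was -0.06 for Ccl3 and -0.51 for Ccl4. The same rat had the lowest mean of the T and NK cell markers, and the part of that in its chemokine levels was not tested.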

How the results depend on the processing

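The 8 of 9 chemokine system genes with a lower mean kept that count under every setting tried except the slide block, where it was 7 because Cx3cl1 turned to 0.02. The genes whose groups did not overlap were Ccl4, Ccl5 and Ackr4 except under median scaling, where Ccl5 overlapped, in the authors' deposited values, where Ccl4 overlapped, and without WT rat 6, where Ccl2 was added. Over 24 alternatives the difference ran from -0.62 to -0.22 for Ccl4, from -0.88 to -0.56 for Ccl5, from -0.45 to -0.31 for Ackr4, from -0.58 to -0.06 for Ccl3 and from -0.46 to -0.03 for Ccl2. No listed pathway gene passed the threshold under any setting (0 in each).

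The number of genes past the threshold was 1, of which 0 were lower. It became 2 (1 lower) with either normexp setting or the authors' values, 8 (7 lower) with a trended robust variance, and 6 (3 lower) with the repeat hybridizations added. It was 0 with the slide as a block. Without the filter on dim probes 1 gene was lower. Leaving out each rat gave 0 to 13 genes, of which 0 to 11 lower, with 13 without overexpressing rat 3, 2 without overexpressing rat 5 or WT rat 1, and 0 without overexpressing rats 6 or 7 or WT rats 3, 4 or 6. Hearts 1, 3 and 6 of both groups share a number. Their deviations correlated by 0.106, 0.0347 and 0.124. No other pairs of hearts were set beside these values, so they cannot decide whether hearts with the same number are paired. With the replicate block over these hearts 0 genes passed, as in the same hearts unblocked (0). Dropping the array of WT heart 2 was chosen after seeing the data. Signal over background limits Ccl4, Ccl3, Cxcl10 and Ccl7, all far below the 75th percentile, and leaves Ccl11 unmeasured. The cause of the shifts between settings was not tested.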
